A study of Homo sapiens with 10 samples.

Results

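Chromosome 18 was described through its H3K4me1 islands and HER2 peaks in the human breast cancer lines SKBR3 and BT474, both established lines with extra copies of ERBB2, the gene of HER2. All islands and peaks listed on chromosome 18 of hg19 (GRCh37) were taken, which gave 7183 of 328907 islands and 1420 of 43001 peaks. HER2, a receptor tyrosine kinase that can also be found in the nucleus, was mapped by ChIP-exo, in which the immunoprecipitated DNA is trimmed by an exonuclease. The enhancer mark H3K4me1, a single methyl group on lysine 4 of histone H3, was mapped by ChIP-seq. SKBR3 and BT474 cells received vehicle (H2O) or EGF at 100 ng/ml for 3 hours for HER2, with 1 list for each of the 4 conditions and no replicate. H3K4me1 had 2 replicates per line, from cells that the labels call asynchronous and the study's text calls EGF-treated. SKBR3 was grown in McCoys 5A and BT474 in RPMI-1640 medium, both with 10% serum, so that line and medium cannot be told apart. The labels give different lots of the HER2 antibody for the lines and the same lot of the H3K4me1 antibody, so that line and lot cannot be told apart for HER2. No source used here says that the replicates came from separate cultures.

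The members of each comparison were chosen by measured values, because chromosome 18 and its nearly empty segments were selected on the difference in islands between the lines. All values below are therefore given as a description without a test. A comparison of 2 against 2 libraries could in any case not reach a two-sided exact permutation p below 0.333, and the HER2 lists have no replicate. Intervals of shares are Wilson intervals at 95%, and they reflect no more than counting error.

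Chromosome 18 is among the gene-poor human chromosomes. Its long arm carries SMAD4, the common partner of the SMAD proteins that transmit TGF-beta signals, DCC, a receptor for netrin, BCL2, an inhibitor of apoptosis, and clusters of desmosomal cadherin and serpin genes. Parts of this arm are often lost in carcinomas of the colon and pancreas. H3K4me1 is found in broad stretches around active and poised enhancers and along the flanks of active promoters, so the length of a region under islands is a coarse measure of how much of it carries the mark. Copies of the DNA also add reads to such a library, and the copy number of chromosome 18 in these cells was not measured.

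The sequences of 6 HER2 sites are shown first, as examples of the sites described below. They were read from the plus strand of GRCh37. Capitals mark the core CGTNTGC, which the study described under HER2 peaks, on either strand. In the fourth site they mark the stretch TACGAGAT, the last 8 bases of the P7 primer of Illumina libraries. The first 2 were the sites of chromosome 18 listed in all 4 HER2 lists, and the peak of SKBR3 EGF is printed for each. The first lay between genes, 118 kb from PIEZO2, and the second in an intron of SERPINB12. The third had the highest score of chromosome 18 in SKBR3 EGF, lay in an intron of CCDC102B and was in no other list. The fourth, 185 kb from DLGAP1, held the primer stretch. The last 2 were SKBR3 EGF peaks with the core that lay inside stretches with no H3K4me1 island in SKBR3, 842 kb from CDH2 and 303 kb from CDH7. A further such peak with the core, at 76081421 to 76081640, is not printed. Most SKBR3 EGF peaks in the nearly empty segments described below did not hold the core.
chr18:11267421-11267620: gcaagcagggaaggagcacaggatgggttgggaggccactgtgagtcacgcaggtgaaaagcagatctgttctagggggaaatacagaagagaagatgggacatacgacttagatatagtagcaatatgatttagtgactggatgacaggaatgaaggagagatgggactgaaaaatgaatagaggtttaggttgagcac
chr18:61223667-61223881: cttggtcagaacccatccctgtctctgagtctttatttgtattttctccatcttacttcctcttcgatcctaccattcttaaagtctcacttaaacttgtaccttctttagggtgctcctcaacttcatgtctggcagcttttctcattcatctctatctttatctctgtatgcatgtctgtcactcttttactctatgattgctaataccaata
chr18:66612310-66612513: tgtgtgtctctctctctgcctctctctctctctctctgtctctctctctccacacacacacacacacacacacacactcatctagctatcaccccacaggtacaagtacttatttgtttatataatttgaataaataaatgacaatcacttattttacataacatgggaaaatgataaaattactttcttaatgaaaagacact
chr18:4640255-4640535: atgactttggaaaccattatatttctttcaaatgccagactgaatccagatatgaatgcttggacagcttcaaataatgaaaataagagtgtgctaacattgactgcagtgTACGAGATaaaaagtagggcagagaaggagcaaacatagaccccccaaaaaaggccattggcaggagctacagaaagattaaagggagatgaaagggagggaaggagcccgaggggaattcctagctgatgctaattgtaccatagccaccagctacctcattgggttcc
chr18:26599918-26600169: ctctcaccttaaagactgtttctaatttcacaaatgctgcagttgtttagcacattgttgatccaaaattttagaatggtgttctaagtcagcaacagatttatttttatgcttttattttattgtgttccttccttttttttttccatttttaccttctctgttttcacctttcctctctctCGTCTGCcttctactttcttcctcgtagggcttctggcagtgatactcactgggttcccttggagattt
chr18:63859974-63860173: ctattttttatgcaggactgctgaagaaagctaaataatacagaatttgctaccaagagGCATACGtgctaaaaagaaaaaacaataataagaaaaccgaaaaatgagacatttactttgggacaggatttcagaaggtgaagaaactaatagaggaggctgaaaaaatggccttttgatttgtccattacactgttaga

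H3K4me1 islands covered about as much of chromosome 18 in BT474 as of the genome, and much less of it in SKBR3. The SKBR3 replicates held 1108 and 979 islands on chromosome 18, which covered 5.46 and 4.99% of its length. The BT474 replicates held 2626 and 2470 islands, which covered 10.5 and 10.1%. Both SKBR3 replicates lay below both BT474 replicates. Over all chromosomes, the cover was 10.4 and 10.6% in SKBR3 and 10.2 and 9.75% in BT474, so the lines differed little there. The ratio of SKBR3 to BT474 cover on chromosome 18 was 0.507, from 0.476 to 0.540 over the 4 pairs of replicates. This was the lowest ratio of the 23 chromosomes, with chromosome X next at 0.688. Chromosome 18 had the second lowest cover in SKBR3 and the ninth highest in BT474. Of all reads in islands, 1.05 and 0.938% fell on chromosome 18 in SKBR3 and 2.62 and 2.64% in BT474. In units of 1e+06 reads, these libraries held 15.6 and 15.3 reads in islands in SKBR3 and 18.7 and 15.1 in BT474, and the ranges of the lines overlapped.

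**Figure D1:**
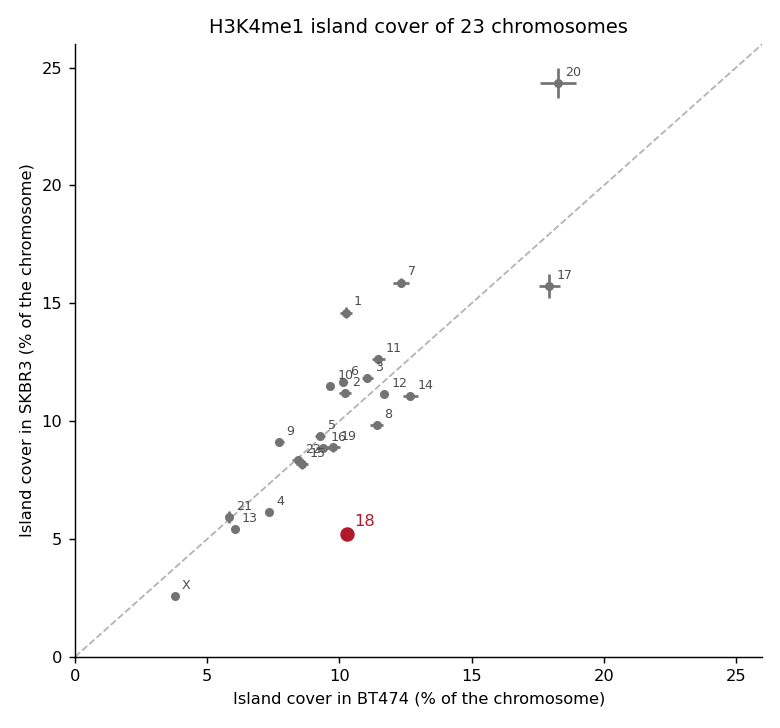
Each point is a chromosome, placed by the percentage of its length under H3K4me1 islands in BT474 (horizontal axis) and in SKBR3 (vertical axis), as the mean of 2 replicates with bars that reach to each replicate. Chromosome 18 lies at 10.3% in BT474 and 5.22% in SKBR3, farthest in ratio below the dashed line of equal cover.

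Cover was lower in SKBR3 on both arms. On the short arm, SKBR3 islands covered 7.27% ± 0.54 (SD, n = 2) and BT474 islands 11.4% ± 0.50. On the long arm, the cover was 4.97% ± 0.30 in SKBR3 and 10.5% ± 0.19 in BT474. The replicates of the lines did not overlap on either arm.

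Along the chromosome, cover was counted in 79 bins of 1 Mb. SKBR3 had no island in 19 bins in each replicate, of which 16 lay outside the centromere gap (15410899 to 18510898). BT474 had no island in 4 and 3 bins, of which 2 and 1 lay outside the gap. BT474 cover was at least 2 times higher than SKBR3 cover, without overlap of replicates, in 48 bins of chromosome 18 (60.8%). Over all chromosomes, 26.3% of bins met this rule. SKBR3 cover was at least 2 times higher in 2 bins (2.53%), against 11.7% of all bins. The latter 2 bins lay side by side at 5 to 7 Mb on the short arm. The remaining bins, among them several of the fullest, differed by less than 2 times. The bin at 9 to 10 Mb held 284 and 272 kb of islands in SKBR3 and 323 and 318 kb in BT474, and the bin at 21 to 22 Mb held 212 and 213 kb against 232 and 228 kb. In contrast, the fullest bin of BT474, at 55 to 56 Mb and with most of NEDD4L, held 229 and 213 kb in SKBR3 and 454 and 448 kb in BT474.

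**Figure D2:**
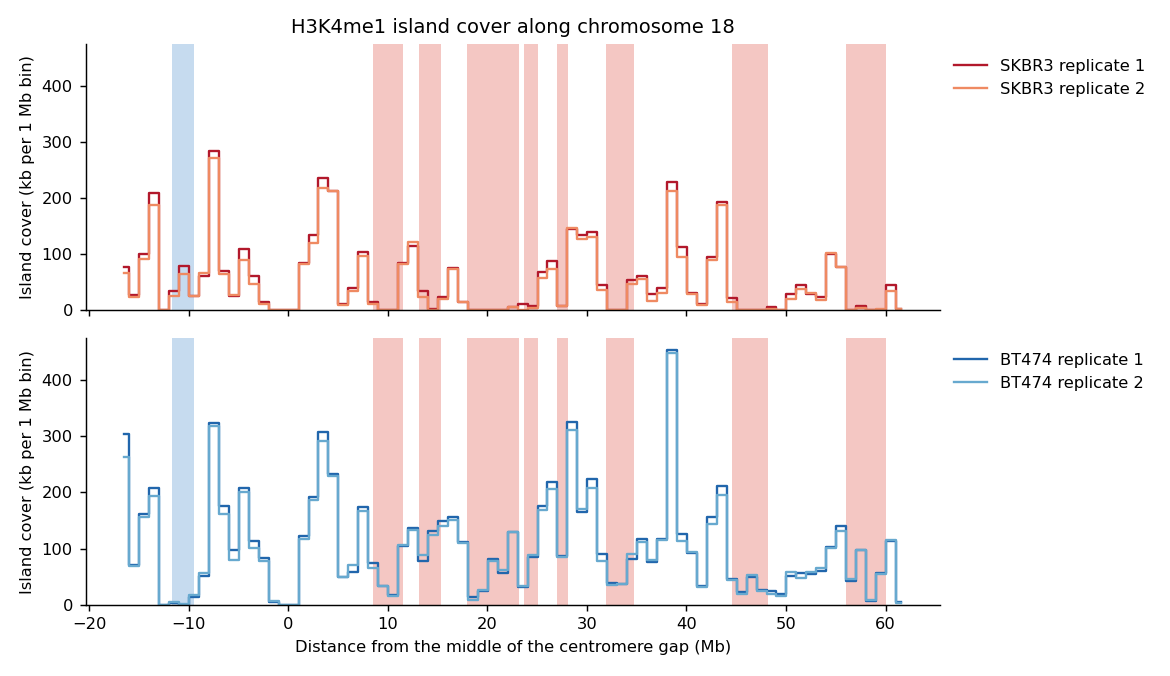
Lines give the kb of H3K4me1 islands in each 1 Mb bin of chromosome 18 against the distance of the bin from the middle of the centromere gap, for the 2 replicates of SKBR3 (top) and of BT474 (bottom). Red shading marks the 8 segments nearly empty in SKBR3 only, where the BT474 lines stay above 0 in most bins, and blue shading the single segment nearly empty in BT474 only.

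Reads per kb of island were also lower on chromosome 18 in SKBR3. The reads per kb of each bin with at least 50 kb of islands were divided by the median of such bins in the same library, so that 1 is the typical value. The median scaled read density of chromosome 18 was 0.910 and 0.889 in SKBR3, over 30 and 28 bins. It was 1.05 and 1.04 in BT474, over 54 bins in each replicate. The SKBR3 median was the second lowest of the 23 chromosomes after chromosome X, and that of BT474 the fifth highest. No SKBR3 bin exceeded 1.03 in replicate 1 or 1.01 in replicate 2, whereas the highest BT474 bin reached 1.37 and 1.35. The lowest SKBR3 values clustered between 42 and 54 Mb, a span delimited after the values were seen, with medians of 0.805 and 0.811 there and 0.965 and 0.915 between 17 and 42 Mb. In BT474, the same 2 spans had medians of 1.1 and 1.07 and of 1.06 and 1.04. An island is listed only where its reads pass the caller's threshold, and the thinnest island of chromosome 18 held 19.5 and 18 reads per kb in the SKBR3 replicates, against a median island of 36.7 and 35.7. How far lower read density kept further islands from being listed was not tested.

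**Figure D3:**
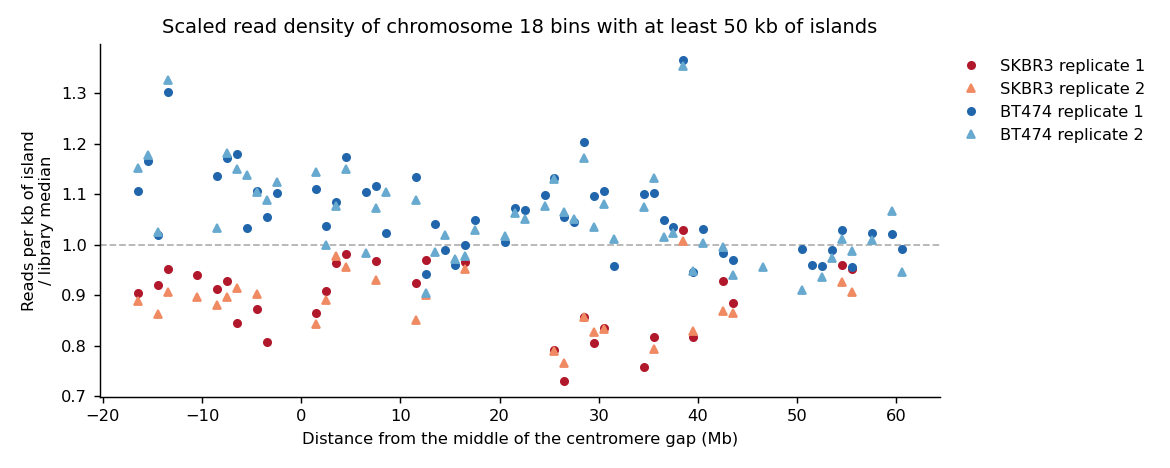
Points are the 1 Mb bins of chromosome 18 with at least 50 kb of islands, placed by distance from the middle of the centromere gap and by reads per kb of island divided by the library's median (dashed line at 1). The SKBR3 bins mostly lie below 1, and the BT474 bins mostly above it on the short arm and the nearer part of the long arm.

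Densely read islands were few on chromosome 18 in SKBR3. Of the islands with at least 2 times the library's median reads per kb, chromosome 18 held 2 and 1 in SKBR3, from totals of 1182 and 1019. It held 46 and 46 in BT474, from totals of 1627 and 1500. As a share of the islands of chromosome 18, these were 0.181 and 0.102% in SKBR3 and 1.75 and 1.86% in BT474, beside 1.62 and 1.45% and 1.69 and 1.68% over the genome. In the SKBR3 replicates, 7 and 5 of the other chromosomes had a lower share than chromosome 18.

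A bin was called nearly empty in a single line when islands covered at most 10 kb in both of its replicates and at least 30 kb in both of the other line. This held for SKBR3 in 13 bins of chromosome 18 (16.5%), the highest share of the 23 chromosomes, and in 8 bins when at least 50 kb was required in BT474. Over all chromosomes the share was 5.86%. It held for BT474 in 1 bin (1.27%), against 0.622% of all bins. Since the rule uses this contrast, nothing further is read from these counts. Near the thresholds, the called bin at 44 to 45 Mb held at most 7.6 kb in SKBR3 and at least 84.4 kb in BT474. Of the bins just outside, the one at 40 to 41 Mb held up to 11 kb in SKBR3, and the one at 36 to 37 Mb held 0 kb in SKBR3 but 25.2 kb in BT474. In all, 8 bins lay just outside for SKBR3 and 2 for BT474. Without SKBR3 replicate 2, the count for BT474 was 2, with the bin at 5 to 6 Mb added.

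The called bins were joined and their edges moved outward to the nearest islands of the empty line, which formed 8 segments nearly empty in SKBR3, all on the long arm. The joined bins spanned 14 Mb, and the extended segments also took in neighbouring bins that did not meet the rule, such as that at 36 to 37 Mb. Together the segments held 23.3 Mb, or 31.3% of the sequenced bases of chromosome 18. SKBR3 islands covered 0.135 and 0.101% of them and BT474 islands 5.39 and 5.34%. The rest of the chromosome was covered to 8.25 and 7.54% in SKBR3 and 13.5 and 13.0% in BT474, so the lines also differed outside the segments. The segments were poorer in genes, with 1.63 protein-coding genes per Mb against 4.60 in the rest, and poorer in G and C, with 38.1 against 40.6%.

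The longest segment, from 34945401 to 40154600 (5.21 Mb), reached from within CELF4, an RNA-binding protein of neurons, past PIK3C3, the lipid kinase of early autophagy. It held 2 islands in each SKBR3 replicate and 132 and 131 in BT474. Its first 4.68 Mb, to 39627200, were the longest stretch of the chromosome without any island in SKBR3, and BT474 islands covered 6.18 and 6.16% of that stretch. PIK3C3 itself had 1.21 and 0.905% of its body under islands in SKBR3 and 22.5 and 23.5% in BT474, with an island at its start site in BT474 only.

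The segment from 25504001 to 28537000 held CDH2, the gene of N-cadherin, and no other protein-coding gene. SKBR3 had 0 islands there in both replicates and BT474 had 50 and 42. CDH2 was covered to 0% in SKBR3 and to 5.14 and 3.59% in BT474. The segment from 30113001 to 32287000 was the best covered in BT474, at 10.8 and 10.9%, against 0.0828 and 0% in SKBR3. Its genes were KLHL14, CCDC178, ASXL3, a Polycomb-associated protein, NOL4, and the start of DTNA, a dystrophin-associated protein. ASXL3 was covered to 0% in SKBR3 and to 16.6 and 14.7% in BT474, and ASXL3, NOL4 and DTNA had an island at the start site in BT474 only.

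The segment from 40659801 to 42053000 held SYT4, a synaptotagmin, and the start of RIT2, a small GTPase of neurons, both with little cover in either line. The segment from 43995001 to 45048000 was the shortest, with 10 protein-coding genes, and had the highest cover in SKBR3, at 0.703 and 0.722%. Among them, PIAS2, a SUMO ligase, was covered to 0% in SKBR3 and to 15.4 and 16.8% in BT474. IER3IP1, a protein of the endoplasmic reticulum, was covered to 0% in SKBR3 and to 40.8 and 56.1% in BT474. ELOA2 lay in the same segment and was at 0% in all 4 libraries. LOXHD1, a gene of the hair cells of the inner ear, and the sialyltransferase gene ST8SIA5 had 0% in SKBR3 and at most 5.47% in BT474.

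The segment from 48857601 to 51684200 held DCC, and its edge cut into MBD2, which binds methylated DNA. DCC, on GRCh37 from 49866567 to 51062269, was covered to 0% in both SKBR3 replicates and to 4.30 and 4.34% in BT474, with a start-site island in BT474 only. MBD2 was not empty in SKBR3, where islands outside the segment covered 49.8 and 37.8% of it, against 52.3 and 61.4% in BT474. The segment from 61558401 to 65188800 held 8 protein-coding genes wholly or partly. Among them were SERPINB10 and SERPINB8, the cadherin genes CDH7 and CDH19, and DSEL, an epimerase of dermatan sulphate. Both SKBR3 replicates had 0 islands in the segment, and BT474 had 67 and 58. CDH7 was covered to 19.2 and 22.6% in BT474. SERPINB2, which the segment's edge cut, went the other way. Islands outside the segment covered 9.32 and 11.2% of it in SKBR3, and its cover in BT474 was 4.35 and 0%.

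The segment nearest the end of the long arm, from 72959401 to 77036000, held 4 and 3 islands in SKBR3 and 84 and 82 in BT474. It cut into TSHZ1, a zinc finger homeobox factor, with 2.53 and 4.80% under islands in SKBR3 and 32.1 and 32.8% in BT474. ZNF236 was covered to 2.0 and 0% in SKBR3 and to 28.5 and 24.5% in BT474. GALR1, a receptor for the neuropeptide galanin, was covered to 0% in SKBR3 and to 28.5 and 32.8% in BT474. MBP, the gene of myelin basic protein, was covered to 1.55 and 1.29% in SKBR3 and to 9.56 and 9.69% in BT474.

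Over the 8 segments, 38 protein-coding genes lay wholly or partly inside. Of these, 25 had no island in their body in SKBR3 and 3 had none in BT474. The 3 were ELOA2, SERPINB10 and an unnamed gene, and all of them were also at 0 in SKBR3. An island lay within 1 kb of the start site in both replicates of BT474 and neither of SKBR3 for 18 of the 38, and for 0 the reverse held. These rules held for 13.7 and 4.36% of genes on all chromosomes and for 35.7 and 1.13% on chromosome 18. Since the segments were chosen for their lack of SKBR3 islands, nothing further is read from the counts over their genes.

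The only segment nearly empty in BT474 lay on the short arm, from 5297801 to 7464000 (2.17 Mb). SKBR3 held 37 and 24 islands there, which covered 5.31 and 4.34% of it, and BT474 held 0 and 1. L3MBTL4, a reader of methylated lysine, was covered to 14.5 and 12.9% in SKBR3 and to 0% in BT474. TMEM200C was covered to 24.0 and 23% in SKBR3 and to 0% in BT474. LAMA1, the alpha chain of a laminin of embryonic basement membranes, and LRRC30 were at 0% in all 4 libraries, so they add nothing to the contrast. EPB41L3, a protein of the membrane skeleton, had 0.420 and 0% in SKBR3.

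HER2 peaks were listed within the segments nearly empty in SKBR3 at about the density of the rest of the chromosome. In SKBR3 EGF, 13 of 37 peaks (35.1%, interval 21.8 to 51.2%) lay in the segments nearly empty in SKBR3, which was 0.557 peaks per Mb against 0.468 in the rest. In SKBR3 vehicle, 8 of 27 peaks (29.6%, interval 15.9 to 48.5%) did so, at 0.343 against 0.370 per Mb. In BT474 EGF, 305 of 1021 peaks (29.9%, interval 27.1 to 32.8%) lay there, at 13.1 against 14.0 per Mb, and in BT474 vehicle 108 of 335 (32.2%, interval 27.5 to 37.4%), at 4.63 against 4.42 per Mb. All 4 intervals include the 31.3% of bases that the segments hold. The segment nearly empty in BT474 held 41 BT474 EGF peaks (4.02%, interval 2.97 to 5.40%), at 18.9 per Mb against 13.5 in the rest. It held 12 BT474 vehicle peaks (3.58%, interval 2.06 to 6.16%), at 5.54 against 4.46. This segment has 2.90% of the sequenced bases, which lies below the EGF interval and inside the vehicle interval. It lies on the short arm, which as a whole held 16.8 BT474 EGF and 4.87 BT474 vehicle peaks per Mb. The long arm held 12.9 and 4.39. Whether the segment differs from its arm was not tested. Of the 13 SKBR3 EGF and 8 SKBR3 vehicle peaks in the SKBR3 segments, few stood in protein-coding genes. They were the SKBR3 EGF peaks in introns of CCDC178 (30997309 to 30997524, score 245) and ATP9B (76935969 to 76936168, score 90.0). The others lay between genes or in introns of non-coding genes. With edges at whole bins, the SKBR3 segments span 14 Mb, so the 31.3% of bases does not apply to them. Their shares of peaks were then 27.0% in SKBR3 EGF, 22.2% in SKBR3 vehicle, 19.3% in BT474 EGF and 20.3% in BT474 vehicle.

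**Figure D4:**
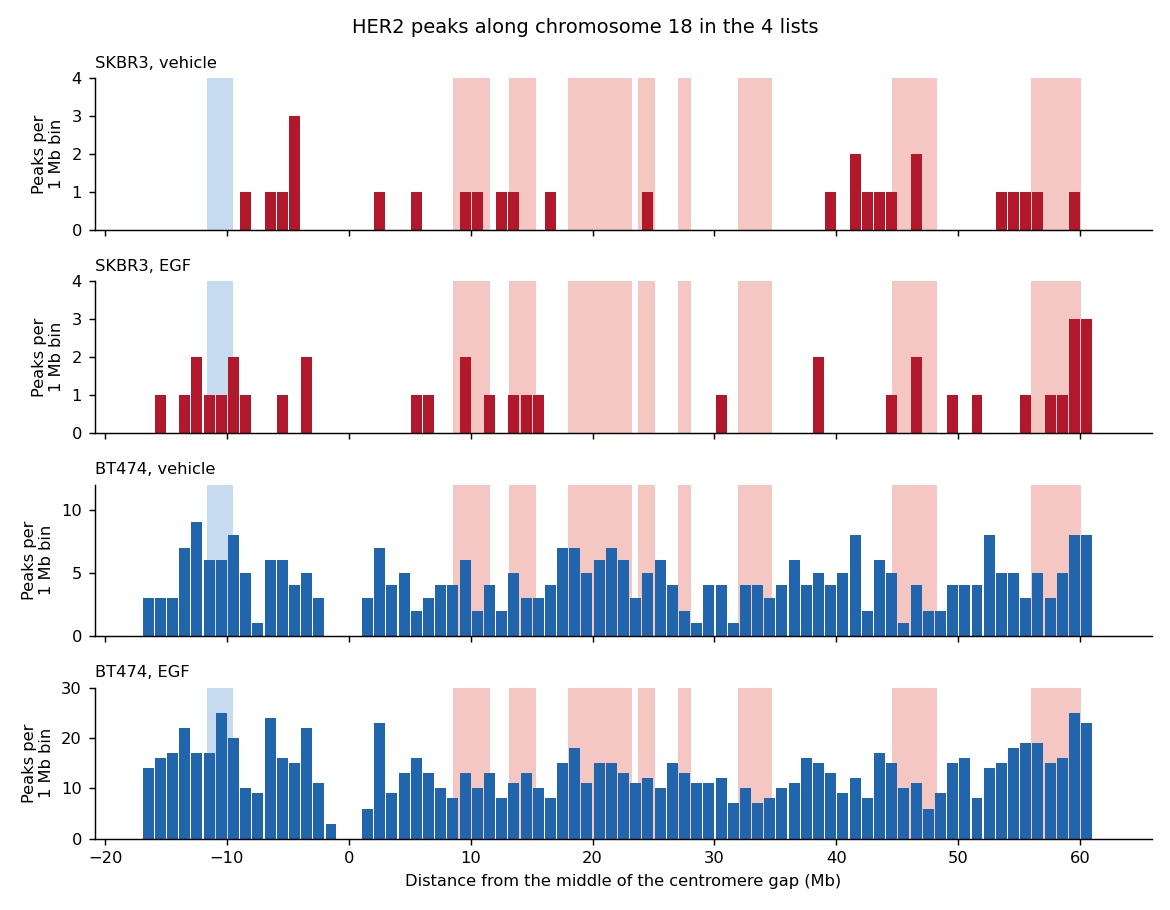
Bars give the HER2 peaks in each 1 Mb bin of chromosome 18 against distance from the middle of the centromere gap, with 1 panel per list and a vertical axis of its own for each. Red and blue shading marks the segments nearly empty of H3K4me1 in SKBR3 and in BT474, and BT474 bars continue through both.

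The number of HER2 peaks on chromosome 18 was low in SKBR3 and high in BT474. SKBR3 vehicle listed 27 of its 2596 peaks there (1.04%, interval 0.716 to 1.51%) and SKBR3 EGF 37 of 2520 (1.47%, interval 1.07 to 2.02%). BT474 vehicle listed 335 of 8559 (3.91%, interval 3.52 to 4.35%) and BT474 EGF 1021 of 29326 (3.48%, interval 3.28 to 3.70%). Chromosome 18 holds 2.63% of the sequenced bases, which lies above both SKBR3 intervals and below both BT474 intervals. Per Mb, this was 0.395 and 0.558 times the genome's density in SKBR3 vehicle and EGF, and 1.49 and 1.32 times in BT474 vehicle and EGF. BT474 vehicle had more HER2 peaks per Mb on chromosome 18 than on any other of the 23 chromosomes. In BT474 EGF its density was the third highest. It was the second lowest in SKBR3 vehicle, after chromosome 22, and the fourth lowest in SKBR3 EGF. HER2 peaks and H3K4me1 islands thus both stood lower on chromosome 18 in SKBR3. The longest stretch between peaks was 15.2 Mb in SKBR3 EGF, from 32064304 to 47225859, and 14.5 Mb in SKBR3 vehicle, from 41731926 to 56217698. In BT474 EGF it was 0.485 Mb outside the centromere gap. The lists differ in total number of peaks, and the HER2 files give no depth.

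Nearly every SKBR3 EGF peak of chromosome 18 was also listed in BT474. Overlap by at least 1 bp with BT474 EGF was found for 36 of 37 (97.3%, interval 86.2 to 99.5%), beside 84.5% on the other chromosomes. With BT474 vehicle it was found for 32 of 37 (86.5%, interval 72.0 to 94.1%), beside 61.8%. With equal numbers of peaks per list, ranked by score, the share of SKBR3 EGF in BT474 EGF was 56.8%. The exception was the CCDC102B site printed above, from 66612310 to 66612513, with a score of 531. Its sequence begins with a run of repeated TC and CA letters. Of the 27 SKBR3 vehicle peaks, 2 (7.41%) were listed after EGF in the same line, beside 13.1% elsewhere. In BT474, 9 of the 27 (33.3%, interval 18.6 to 52.2%) were listed after vehicle, beside 16.3% elsewhere, and 17 (63.0%, interval 44.2 to 78.5%) after EGF, beside 42.9%. Of the 335 BT474 vehicle peaks, 307 (91.6%) were listed after EGF, beside 91.2% elsewhere. Merged over the lists, the peaks formed 1060 sites, of which 741 stood in 1 list, 280 in 2, 37 in 3 and 2 in all 4. BT474 EGF alone accounted for 702 of them.

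The site at 11267421 to 11267620 had the highest score of chromosome 18 in SKBR3 vehicle (56.5) and in BT474 EGF (857), and the second highest in BT474 vehicle (361.5). It had neither the core nor the primer stretch. The highest score of BT474 vehicle (446) belonged to a site at 71972409 to 71972738, 10.5 kb from C18orf63. The second of BT474 EGF (724), at 26599864 to 26600228, was the site printed above that lay 842 kb from CDH2, inside a segment without islands in SKBR3. Scores have no stated scale and are compared within a list only.

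The core CGTNTGC was present within 50 bp of the midpoint in 1 of 27 SKBR3 vehicle peaks and in 5 of 37 SKBR3 EGF peaks (13.5%, interval 5.91 to 28.0%). In BT474 it was present in 45 of 335 vehicle peaks (13.4%, interval 10.2 to 17.5%) and in 84 of 1021 EGF peaks (8.23%, interval 6.69 to 10.1%). Windows of the same size 1 kb to either side held it in 0, 4.05, 1.04 and 0.881% in the same order, where 0% is 0 of 54 windows and 4.05% is 3 of 74. On the other chromosomes the core was present in 3.46, 11.9, 11.7 and 7.38% of peaks. TACGAGAT, which overlaps the reverse complement of the core in the primer by 4 bases, was found at 0, 1, 15 and 18 peaks of chromosome 18 in the same order of lists. These were 0, 2.70, 4.48 and 1.76% of peaks, beside 0.467, 2.50, 3.14 and 1.91% on the other chromosomes. The 0 of 27 SKBR3 vehicle peaks allow a share of up to 11.1%, the limit that 3 counts set. None of the windows held the stretch, which allows shares of windows up to 5.56, 4.05, 0.448 and 0.147% in the same order. A match of letters describes the sequence and is not a site of binding.

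The share of HER2 peaks of chromosome 18 that lay in H3K4me1 islands of the same line was below that on the other chromosomes in each list. Only in BT474 vehicle was it clearly below by the intervals. In SKBR3 EGF the share was 5.41%, or 2 of 37 peaks with each replicate, beside 15.4% on the other chromosomes. In SKBR3 vehicle it was 7.41% ± 5.24 (SD, n = 2 H3K4me1 replicates), beside 15.7%. In BT474 EGF it was 10.1% ± 0.485, beside 12.1%, and in BT474 vehicle 8.81% ± 0.211, beside 13.4%. The SD leaves out the counting error of the peaks. Intervals reached up to 17.7% in SKBR3 EGF with each replicate and to 28.1 and 18.3% in SKBR3 vehicle. They include the shares on the other chromosomes. In BT474 EGF they ended at 12.5 and 11.8%, about at the shares elsewhere. In BT474 vehicle they ended at 12.5 and 12.2%, below the shares elsewhere. Islands covered a mean of 5.22% of chromosome 18 in SKBR3 and 10.3% in BT474, so the shares of chromosome 18 lay near the cover. Whether they differ from it was not tested. With islands of the other line, the mean shares were 5.41% for SKBR3 EGF, 11.1% for SKBR3 vehicle, 4.85% for BT474 EGF and 5.07% for BT474 vehicle.

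Across genes of at least 5 kb on chromosome 18, islands covered more of the body in BT474 than in SKBR3, without overlap of replicates, in 185 of 253 (73.1%). Over all chromosomes this was so for 38.8% of 17220 genes. The reverse held for 26 genes (10.3%), against 28.0% of all genes. The median difference, BT474 minus SKBR3, was 9.01 percentage points on chromosome 18 and 0 over all chromosomes. An island at the start site in BT474 only was found at 95 of 266 protein-coding genes (35.7%), against 13.7% over all chromosomes. In SKBR3 only, it was found at 3 (1.13%), against 4.36%. At 37 genes of chromosome 18 the start site had an island in all 4 libraries and at 83 in none.

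Of the genes of at least 5 kb outside the segments, SLC39A6, a zinc transporter of oestrogen-responsive breast cells, differed most, with 0 and 0% of its body under islands in SKBR3 and 72.4 and 70.5% in BT474. USP14, a deubiquitinase of the proteasome, had 4.62 and 5.03% in SKBR3 and 79 and 66.5% in BT474. VAPA, a tether of the endoplasmic reticulum, had 38.3 and 29.6% in SKBR3 and 91.3 and 94.8% in BT474. NAPG, an adaptor of membrane fusion, had 0% in SKBR3 and 55.1 and 57.3% in BT474. Of the genes of at least 5 kb with more cover in SKBR3, the difference was largest for SERPINB13, a serpin of squamous epithelia, with 38.8 and 29.5% in SKBR3 and 5.67 and 5.67% in BT474. CYB5A, which encodes cytochrome b5, had 74.2 and 70.8% in SKBR3 and 59.3 and 57.9% in BT474. NPC1, a lysosomal cholesterol transporter, had 42.6 and 38.3% in SKBR3 and 32.4 and 30.4% in BT474.

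Grouped by role, 56 genes of chromosome 18 were followed, of which 37 had more cover in BT474 and 7 in SKBR3 without overlap of replicates. The background shares for these calls are the 38.8 and 28.0% given above, and the whole chromosome had 73.1 and 10.3%. The TGF-beta and SMAD list had 3 of 5 genes higher in BT474 and 1 in SKBR3. SMAD4, from 48554898 to 48611415 outside the segments, had 0% in both SKBR3 replicates and 40.2 and 31.3% in BT474, with a start-site island in BT474 only. SMAD2, a receptor-activated SMAD, had 29.1 and 27.0% in SKBR3 and 47.1 and 46.5% in BT474. SMAD7, an inhibitory SMAD, had 55.3 and 52.1% in SKBR3 and 73.9 and 70.7% in BT474. TGIF1, a repressor of SMAD signalling, went the other way, with 39.2 and 27.3% in SKBR3 and 20.6 and 19.4% in BT474.

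Among the cadherins and desmosomal cadherins, 7 of 11 had more cover in BT474 and 1 in SKBR3. CDH2, CDH7, CDH19, CDH20 and DSG1 had no islands in SKBR3. DSC1, a desmocollin of differentiated epidermis, had 44 and 33.9% in SKBR3 and 20.3 and 23.9% in BT474, but a start-site island in BT474 only. DSG2, the desmoglein of simple epithelia, had 23.6 and 16.9% in SKBR3 and 16.9 and 17.3% in BT474, and the replicates overlapped. DSG3 was at 0% in all 4 libraries. Of the serpins of clade B, 2 of 10 were higher in each line, and SERPINB3, SERPINB4, SERPINB5 and SERPINB10 were at 0% in all 4. LAMA3, a laminin chain of epithelial basement membranes, was slightly higher in SKBR3, with 11.4 and 13.0% in SKBR3 and 10.9 and 10.9% in BT474.

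In the list of cell death and signalling genes, 7 of 10 had more cover in BT474 and 2 in SKBR3. BCL2 had 2.85 and 3.15% in SKBR3 and 23 and 22.4% in BT474. NEDD4L, a ubiquitin ligase of membrane channels, had 30.4 and 31.1% in SKBR3 and 77.0 and 71.7% in BT474. YES1, a kinase of the SRC family, had 9.89 and 5.28% in SKBR3 and 38.3 and 27.9% in BT474. PHLPP1, a phosphatase of AKT, had 42.9 and 41.6% in SKBR3 and 33.1 and 27.9% in BT474, and the atypical kinase MAPK4 was also higher in SKBR3. PHLPP1 and MAPK4 nevertheless had a start-site island in BT474 only. PMAIP1, the pro-apoptotic protein NOXA, had 68.1% in all 4 libraries.

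All 10 transcription factor genes had more cover in BT474. ZBTB7C had 18.1 and 17.3% in SKBR3 and 53.2 and 49.6% in BT474, and SETBP1 7.57 and 7.78% in SKBR3 and 32.3 and 31.1% in BT474. GATA6, a factor of endoderm, had 16.4 and 34.6% in SKBR3 and 51.6 and 39.5% in BT474, with a wide spread between replicates. All 8 genes of the chromatin and cell cycle list were also higher in BT474. TYMS, thymidylate synthase, had 0% in SKBR3 and 13.8 and 16.3% in BT474, and MBD1, another reader of methylated DNA, 0% in SKBR3 and 29.2% in both BT474 replicates. NDC80, a kinetochore protein, and SMCHD1, a regulator of the inactive X chromosome, had start-site islands in all 4 libraries, although less of their bodies was covered in SKBR3.

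**Figure D5:**
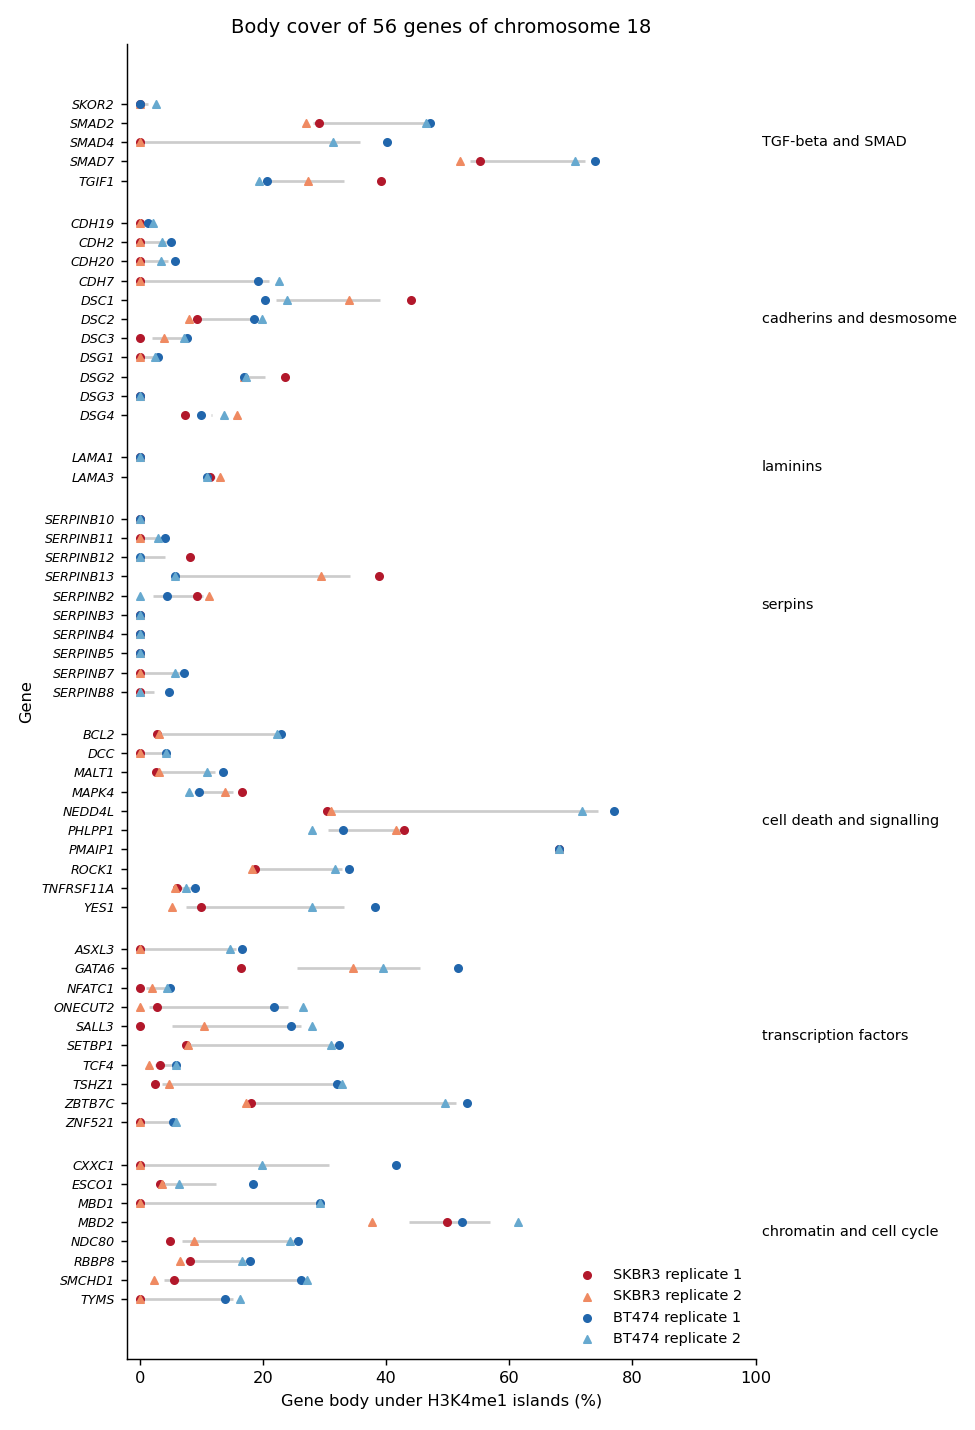
Points give the percentage of each gene body under H3K4me1 islands in the 2 replicates of SKBR3 (red) and BT474 (blue), for 56 genes of chromosome 18 grouped by role, with grey lines between the means of the lines. BT474 lies to the right of SKBR3 for 37 genes without overlap of replicates and to the left for 7.

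HER2 peaks in these 56 genes numbered 1 in SKBR3 vehicle, 4 in SKBR3 EGF, 25 in BT474 vehicle and 73 in BT474 EGF. These were 3.70, 10.8, 7.46 and 7.15% of the peaks each list held on chromosome 18. BT474 EGF listed 9 peaks in DCC (1196 kb long), 6 in NEDD4L (357 kb), 5 in ZBTB7C (384 kb) and 0 in SMAD4 (56.5 kb). Chromosome 18 as a whole held 13.7 BT474 EGF peaks per Mb. The genes differ in length, and the share of bases that the 56 genes hold was not computed. The counts are therefore not read as rich or poor in peaks. The 4 SKBR3 EGF peaks were 1 each in NEDD4L, NFATC1, SERPINB12 and ZNF521.

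The labelled lines were checked at marker genes on other chromosomes. ERBB2 was covered to 97.6 and 97.2% in SKBR3 and to 100% in BT474, and the luminal keratin gene KRT8 to 67.5 and 61.8% and to 62.6 and 63.4%. CDH1, which encodes E-cadherin, and GATA3, a luminal factor, had 0% in SKBR3 and 57.8 and 54.5% on average in BT474. KRT14, a keratin of basal cells, had 83.8% in both SKBR3 replicates and 0% in BT474. Members of each list went both ways. Of the luminal list, KRT19 had means of 66.8% in SKBR3 and 36.9% in BT474, and KRT18 of 8.55 and 56.7%. Of the basal or mesenchymal list, the means in SKBR3 and BT474 were 54.7 and 0.957% for KRT5 and 42.1 and 34.6% for TP63. They were 11.8 and 33.8% for VIM and 0 and 7.71% for ZEB1. Of 7 luminal markers, CDH1, GATA3 and FOXA1 were at 0% in SKBR3, with the means of the others from 8.55 to 97.4%, and the means in BT474 ranged from 12.6 to 100%. FOXA1 had an island at its start site in all 4 libraries. Of 5 basal or mesenchymal markers, ZEB1 was at 0% in SKBR3 and KRT14 in BT474, and the means reached 83.8% in SKBR3 and 34.6% in BT474. The labels name the lines only, and these values are given beside the differences on chromosome 18 because they moved with the line as well. Whether they have a part in the result was not tested. Counts in the bins of chromosome 18 differed between replicates of a line by more than counting noise, with a chi-square per degree of freedom of 11.5 in SKBR3 and 6.18 in BT474, so the replicates were kept as separate libraries.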

How the data were processed

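The lists comprised 4 of HER2 by ChIP-exo, from SKBR3 and BT474 treated with vehicle or EGF, and 4 of H3K4me1 by ChIP-seq, 2 from each line. Groups were taken from the labels. Both inputs came without a list and are not analysed here. According to its methods, the study used bowtie2 on hg19, dropped reads that mapped poorly, used MACS2 for HER2 and SICER for H3K4me1, and removed the ENCODE blacklist and regions of high input signal by GreyListChIP. The submitters' processing notes name BWA 0.5.9, MACS 1.4.1 and SICER 1.1 instead, and this difference is unsettled. The score of a HER2 peak is the value the authors deposited, on a scale not stated. The read count of an island is likewise the deposited whole number, not scaled for depth. No depth is given for the HER2 libraries.

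Islands were laid on tiles of 200 bp and summed in bins of 1 Mb. Reads of an island that crossed bins were divided by length. A segment joined called bins across at most 1 bin with up to 30 kb in both lines, and its edges were moved outward to the nearest islands of the empty line. Genes came from GENCODE release 44 lifted to GRCh37, with 20090 protein-coding genes, 266 of them on chromosome 18. Chromosome 18 of the reference has 78077248 bp, as in hg19. Body cover is the percentage of a gene under islands, and a start-site island lies within 1000 bp of the start. Peaks were shared at an overlap of at least 1 bp. Genes were named from those of the segments, those of the lists by role and those at the 3 highest scores of each HER2 list. They were also drawn from the 10 with the largest difference in body cover each way outside the segments. Not every gene of these sets is named in the text. The members, lists and rules were chosen with earlier results of these data known. Nothing was tested, and the tallies were checked on simulated data. Python 3.11.15, pandas 2.3.3 and numpy 2.4.6 were used.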

Additional observations from a re-analysis of the deposited data

Results flagged for a closer look

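The share of HER2 peaks that lay on chromosome 18 moved in opposite directions with EGF in the lines. It was 0.428 percentage points higher after EGF than after vehicle in SKBR3, and in BT474 the difference was -0.432 percentage points. There was 1 list per condition, the intervals of vehicle and EGF overlap within each line, and the difference between the lines was not tested.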

How the results depend on the processing

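Of 123 alternative values for 28 results, 95 stayed within the spread of replicates, the interval or 1.5 times the count, and 28 moved further. Some of the 95 could not have moved. The scaled density of a line does not use libraries of the other line. Leaving out 1 of its own 2 replicates always shifts its mean by less than the SD allowed. The range of scaled densities given next is therefore no check. No paired analysis was possible because the results come from no test, and the replicate numbers of H3K4me1 mark no shared culture between the lines. Leaving out each H3K4me1 library in turn gave 13 to 16 Mb nearly empty in SKBR3 only, 1 to 2 Mb in BT474 only, 44 to 50 Mb with higher cover in BT474, 2 Mb with higher cover in SKBR3, a cover ratio of 0.484 to 0.531, and scaled densities of 0.889 to 0.910 in SKBR3 and 1.04 to 1.05 in BT474. Requiring 50 kb in the other line left 8 Mb nearly empty in SKBR3, and reads in place of cover gave 2 Mb in BT474. The cover ratio of SKBR3 to BT474 was 0.00405 over islands with at least 2 times the median reads per kb and 0.582 without the segments. Scaled by the library total, density was 0.789 in SKBR3 and 0.957 in BT474. In BT474 it was 1.06 with bins of at least 20 kb of cover, 1.05 in bins of 0.5 Mb and 1.04 without the segments. Without the segments, 0.878% of SKBR3 EGF, 2.55% of BT474 vehicle and 2.33% of BT474 EGF peaks lay on chromosome 18, lower by construction, and 13.0% of BT474 EGF peaks there lay in islands. With edges at whole bins, the segments held 20.3% of BT474 vehicle and 19.3% of BT474 EGF peaks, since they are then shorter. With equal numbers of peaks, the shared part was 56.8% for SKBR3 EGF in BT474 EGF, 63.8% for BT474 vehicle in BT474 EGF and 69.8% for the reverse. Peaks at or above the median score gave 18.2% for SKBR3 vehicle in BT474 vehicle, 0% for SKBR3 vehicle in SKBR3 EGF, and 0% of SKBR3 EGF peaks in islands. The core was found in 0% of SKBR3 vehicle, 5.41% of SKBR3 EGF, 4.78% of BT474 vehicle and 3.72% of BT474 EGF peaks within 25 bp of the midpoint, and in 20% of BT474 vehicle and 12.9% of BT474 EGF peaks over the whole peak. Except where the construction shows it, the cause was not tested. The unknown depth of the HER2 libraries and their lack of replicates limit every HER2 value.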
